A study of Mus musculus with 721 samples.

Results

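The genes described here are Vegfa, which encodes the growth factor VEGF-A, and 9 genes that are read in blood vessel endothelium: Kdr, Flt1, Pecam1, Cdh5, Emcn, Egfl7, Aplnr, Madcam1 and Esam. They were chosen by symbol, and all 10 were found among the 32806 genes of the table. Their transcripts were measured in single cells sorted by flow cytometry for eGFP from the pancreas of mouse embryos that carry a Neurogenin 3-eGFP reporter, in which the fluorescent protein marks cells that express, or recently expressed, the endocrine progenitor factor Neurog3. Every cell carried the reporter, and no other allele or agent is named in the labels. Libraries were made with SMART-seq and Nextera XT, and 658 of 721 cells were kept (at least 100000 fragments and 1500 genes at 1 FPKM or more). The cells form 8 cell sets, each 1 embryonic day in 1 run (the labels name a first and a second run and do not say of what step), and kept cells per set numbered 68 to 94. The days E11.5 and E12.5 are in run 1 alone (73 and 90 cells), and the 3 later days in runs 1 and 2. The labels name neither embryos nor litters, so the unit of comparison is the cell set, p-values cover the spread among sets alone, and the 2 runs of a day may share embryos.

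VEGF-A is secreted and acts on endothelial cells through the receptor tyrosine kinases Kdr, which carries most of the growth signal, and Flt1, which binds the ligand tightly and signals weakly. In the pancreas, endocrine cells are a known source of VEGF-A, and endothelium lies close to the developing epithelium and islets. Pecam1, Cdh5 and Esam encode adhesion molecules of endothelial junctions, Emcn a sialomucin of capillaries and veins, Egfl7 a secreted protein of the vessel matrix, Aplnr the apelin receptor, and Madcam1 an adhesion molecule that binds lymphocytes in mucosal venules.

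Sequence just upstream of the transcription starts is shown for the genes on which the results below turn. For Egfl7 there are 2 starts, 1 assigned most of the transcript estimate in endothelium-like cells and 1 in other cells. Shown beside these are the 4 other genes with a RefSeq window that were read in endothelium-like cells, and Vegfa, which was not detected there. Each window holds 200 bases, 5′ to 3′ on the gene's strand, from the RefSeq promoters of GRCm38.p6, and ends at the start or at the edge of an annotated UTR. Capitals mark 2 motifs, searched on both strands: AGGAAG, a core bound by ETS factors, and the GC box GGGCGG, each also as its reverse complement. Both motifs were chosen after the sequences were seen.
Egfl7, upstream start, chr2:26583664-26583863, plus strand: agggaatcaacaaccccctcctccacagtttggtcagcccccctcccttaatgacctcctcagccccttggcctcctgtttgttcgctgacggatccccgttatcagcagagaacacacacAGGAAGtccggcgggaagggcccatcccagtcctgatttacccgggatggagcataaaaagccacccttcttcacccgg
Egfl7, downstream start, chr2:26586430-26586629, plus strand: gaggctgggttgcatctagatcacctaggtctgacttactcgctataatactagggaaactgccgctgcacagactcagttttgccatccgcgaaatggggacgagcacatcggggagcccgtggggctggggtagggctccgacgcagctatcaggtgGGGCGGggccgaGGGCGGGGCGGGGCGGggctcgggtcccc
Emcn, chr3:137340867-137341066, plus strand: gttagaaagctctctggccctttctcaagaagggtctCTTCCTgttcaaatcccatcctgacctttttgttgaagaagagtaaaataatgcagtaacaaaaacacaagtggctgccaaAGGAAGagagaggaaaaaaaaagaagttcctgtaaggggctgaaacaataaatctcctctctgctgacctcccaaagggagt
Kdr, chr5:75978459-75978658, minus strand: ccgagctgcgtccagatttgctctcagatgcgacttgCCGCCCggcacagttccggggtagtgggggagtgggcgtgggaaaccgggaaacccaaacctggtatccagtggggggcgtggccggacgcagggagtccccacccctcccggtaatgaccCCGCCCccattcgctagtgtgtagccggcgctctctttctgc
Flt1, chr5:147726012-147726211, minus strand: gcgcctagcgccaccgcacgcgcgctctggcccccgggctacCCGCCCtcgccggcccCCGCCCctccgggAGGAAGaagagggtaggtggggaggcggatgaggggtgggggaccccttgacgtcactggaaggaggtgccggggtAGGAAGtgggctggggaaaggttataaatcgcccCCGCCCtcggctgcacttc
Madcam1, chr10:79664359-79664558, plus strand: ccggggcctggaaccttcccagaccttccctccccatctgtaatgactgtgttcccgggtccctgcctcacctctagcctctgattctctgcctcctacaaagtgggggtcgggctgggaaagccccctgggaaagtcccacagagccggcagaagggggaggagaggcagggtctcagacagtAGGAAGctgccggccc
Vegfa, chr17:46032378-46032577, minus strand: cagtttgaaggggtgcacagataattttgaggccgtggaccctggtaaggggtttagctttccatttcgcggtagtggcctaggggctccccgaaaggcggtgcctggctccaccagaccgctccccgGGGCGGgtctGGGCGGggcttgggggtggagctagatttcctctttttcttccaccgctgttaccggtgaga
The upstream Egfl7 window held 1 AGGAAG and 0 GGGCGG matches, and the downstream one 0 and 4. Another Egfl7 window further upstream, which is not printed, held 3 AGGAAG matches. Emcn held 2 AGGAAG matches, Kdr 0 with 2 GC boxes, Flt1 2 with 3 GC boxes, Madcam1 1, and Vegfa 0 with 2 GC boxes. Another Vegfa window, at chr17:46025164-46025363 and not printed, held 0 AGGAAG matches and 1 GC box. Over all 32851 promoter windows of the same length, 24.7% held AGGAAG and 31% GGGCGG, so these matches are a description and mark no binding site. RefSeq entries matched 6 of the 10 genes, and Pecam1, Cdh5, Esam and Aplnr are named only.

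In mm10, per the deposited gene table, Vegfa lies at chr17:46016993-46032377 and Kdr and Flt1 lie at chr5:75932827-75978458 and chr5:147561604-147726011. Pecam1 is at chr11:106654217-106750628, Cdh5 at chr8:104101625-104144502, Emcn at chr3:137341067-137432185 and Egfl7 at chr2:26581056-26636497. Aplnr is at chr2:85136360-85139922, Madcam1 at chr10:79664574-79668536 and Esam at chr9:37528078-37538319. Values are FPKM (fragments per kilobase of transcript, normalised to sequencing depth by its definition) that were scaled here by each cell's fragment number, called depth-scaled FPKM below. Kept cells held 101675 to 1990000 fragments (median 587177). For Vegfa, 1 fragment equalled 0.671 deposited FPKM, so the 10 FPKM used below to count a cell corresponds to 14.9 fragments. Some sets stood apart. The GC-rich ribosomal gene Rpl13 had means of 93.6 and 66.2 depth-scaled FPKM in E12.5 run 1 and E13.5 run 1 and 1090 to 1750 in the other 6, and the median share of a cell's total held by small RNA and predicted genes was 37.1% to 41.7% in the run 2 sets and 8.84% to 19.6% in those of run 1. At E15.5 and the 2 earliest days, 95.9% to 100% of cells held Y-linked transcripts, beside 0.0% at E13.5 and E14.5, where Xist was in 95.7% to 100%, so day and sex of the embryos are joined. At E14.5, 1 cell of each run correlated at r 0.862, with the next pair at 0.752, and their Vegfa was 0.0 and 5.4. All 96 index pairs occur in 2 or more sets and 0 pairs occur more than once in a set.

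Cell states were set on deposited values without Vegfa. A cell with Pecam1 and Cdh5 at 10 FPKM or more was called endothelium-like, and another cell with Ptprc at 10 or more leukocyte-like. The remaining cells were sorted by hormone (100 FPKM or more of insulin, glucagon or ghrelin transcripts without the other 2 or somatostatin, or any other hormone pattern) and then by Neurog3 and by Fev, a factor of the step after Neurog3, at 10 FPKM or more. This gave 475 endocrine cells: 158 Neurog3-only, 77 Neurog3 and Fev, 59 Fev-only, 50 insulin-only, 44 glucagon-only, 26 ghrelin-only and 61 with another hormone pattern. Of the 73 and 90 cells at E11.5 and E12.5, only 15 and 16 were endocrine, so that these sets say little of endocrine Vegfa.

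Vegfa transcripts were found across the endocrine states, and a minority of cells held them at 10 FPKM or more. In all, 82 of 475 endocrine cells (17.3%, exact Clopper-Pearson 95% interval 14 to 21%) held Vegfa at 10 FPKM or more, and 272 held any. The libraries carry no molecular identifiers, and this and the following intervals treat cells as independent. They cover counting error only, not the spread among cell sets, over which the endocrine share ran from 6.58% to 26%. The share was 15 of 50 insulin-only cells (30%, 17.9 to 44.6%), 33 of 158 Neurog3-only cells (20.9%, 14.8 to 28.1%), 13 of 77 Neurog3 and Fev cells (16.9%) and 8 of 59 Fev-only cells (13.6%). It was 7 of 61 cells with another hormone pattern, 4 of 44 glucagon-only cells (9.09%, 2.53 to 21.7%) and 2 of 26 ghrelin-only cells (7.69%, 0.946 to 25.1%). The intervals of insulin-only and glucagon-only cells overlap, but such intervals do not test a difference between states. Outside the endocrine states, 16 of 122 cells with no marker, 2 of 48 leukocyte-like cells (4.17%) and 0 of 13 endothelium-like cells reached 10 FPKM.

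Ordered by the median of the set means, over sets with at least 5 cells of the state, Vegfa was highest in insulin-only cells at 10.4 depth-scaled FPKM (set means 7.16 to 13.4, 3 sets). Neurog3-only cells followed with 9.51 (1.36 to 23, 8 sets), then Neurog3 and Fev cells with 5.49 (2.11 to 7.39, 6 sets) and other hormone patterns with 4.93 (2.02 to 6.61, 6 sets). Fev-only cells had 3.22 (0.127 to 28.2, 6 sets), glucagon-only cells 2.58 (1.12 to 4.18, 4 sets) and ghrelin-only cells 1.08 (0.858 to 1.29, 2 sets). Every pair of neighbours in this order overlapped in its range of set means. The means of insulin-only cells did not overlap those of glucagon-only, ghrelin-only and other hormone cells, although the sets behind them differ.

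**Figure D1:**
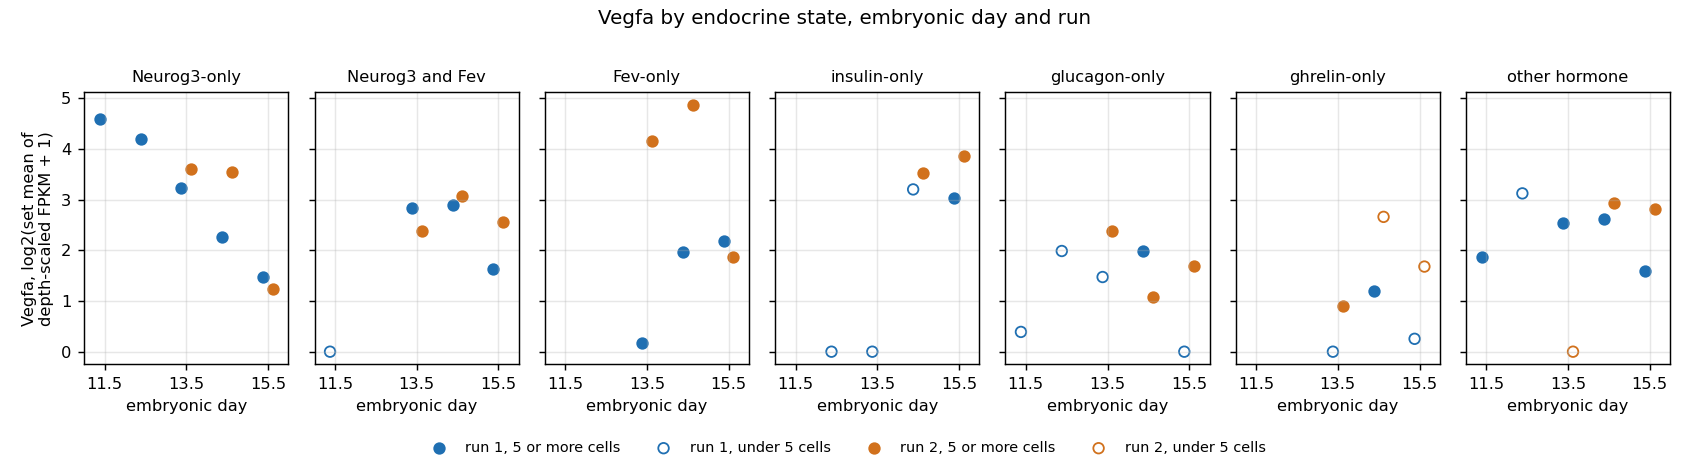
Vegfa in each endocrine state against embryonic day, as log2 of the set mean in depth-scaled FPKM + 1, with runs by colour, filled points for sets of 5 or more cells of the state and open points for fewer. In FPKM, Neurog3-only means lie between 8.36 and 23 at E11.5 to E13.5 and at 1.79 and 1.36 at E15.5, whereas insulin-only means at E14.5 and E15.5 lie between 7.16 and 13.4.

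Within Neurog3-only cells, the state of endocrine progenitors, Vegfa was lower on later days. The set means were 23 for E11.5 (5 cells, of which 1 at 107) and 17.2 for E12.5 (7 cells). On E13.5, runs 1 and 2 had 8.36 and 11.2, followed by 3.77 and 10.7 on E14.5 and by 1.79 and 1.36 on E15.5. Cells at 10 FPKM or more numbered 1 of 5, 3 of 7, 9 of 27, 8 of 26, 4 of 30, 8 of 28, 0 of 22 and 0 of 13 in the same order. Both E15.5 sets lay below every earlier set, while E14.5 run 2 lay among the E13.5 sets. In the 4 sets with Y-linked transcripts the means were 23 and 17.2 (E11.5 and E12.5) and 1.79 and 1.36 (E15.5). Without E12.5 run 1 and E13.5 run 1, the sets low in Rpl13, the slope that follows was -0.85. Its exact permutation p was 0.0278, the smallest that the 36 arrangements left can give. Adjusted over the 4 cell groups it was 0.111, which did not pass, but so few arrangements cannot decide whether the slope holds.

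The slope of log2(mean + 1) was -0.88 ± 0.19 (SE) per day over 8 sets, with run in the model. Permuting day within runs gave an exact two-sided p of 0.00278 (720 arrangements), or 0.0111 after Benjamini-Hochberg adjustment over the 4 cell groups in which the slope was tested. This adjusted p was 0.0556 without E11.5 run 1, without E13.5 run 1 or without E15.5 run 1. The slopes were then -0.99, -0.88 and -0.91, each with 144 arrangements. Over all 14859 genes tested, limma gave Vegfa the 39th smallest p (0.00143) and a Benjamini-Hochberg adjusted p of 0.514. In that fit 0.0% of genes passed 0.05, although 683 had a positive and 463 a negative slope at an unadjusted p under 0.05. The share of Neurog3-only cells at 10 FPKM changed by -8.36 percentage points per day, with an exact permutation p of 0.0861 (adjusted 0.344). With a mean of log values over cells, which gives high cells less weight, the slope was -0.47 and the exact permutation p 0.0333 (adjusted 0.133).

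The same slope was -0.35 per day over all endocrine cells (exact permutation p 0.0306, adjusted 0.0612; limma adjusted p 0.522 by Benjamini-Hochberg). It was -0.25 in Neurog3 and Fev cells and -0.07 in Fev-only cells (exact permutation p 0.444 and 1.0, 6 sets each). Whether the slope of Neurog3-only cells differed from these was not tested. In Neurog3 and Fev cells the means were 6.12 and 4.17 on E13.5, 6.39 and 7.39 on E14.5 and 2.11 and 4.86 on E15.5, with no set apart from the others. In Fev-only cells they were 0.127 and 16.8, 2.92 and 28.2, and 3.53 and 2.66. The highest means there came from single cells at 150 (E13.5 run 2) and 183 (E14.5 run 2).

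Insulin-only cells, with the hormone of beta cells, held Vegfa at E15.5, where the Neurog3-only means were the lowest. At E14.5 their means were 8.18 in run 1 (4 cells) and 10.4 in run 2, and at E15.5 7.16 and 13.4. At E15.5, 3 of 11 and 9 of 19 insulin-only cells reached 10 FPKM, beside 0 of 22 and 0 of 13 Neurog3-only cells of the same sets. No Vegfa was detected in the 2 insulin-only cells at E12.5 and the 4 at E13.5. Glucagon-only cells had means of 4.18 (E13.5 run 2), 2.95 and 1.12 (E14.5 runs 1 and 2) and 2.21 (E15.5 run 2), and ghrelin-only cells 0.858 (E13.5 run 2) and 1.29 (E14.5 run 1).

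No difference in Vegfa between states passed the test, in which 2.17% (Neurog3 and Fev), 8.32% (Fev-only), 5.52% (insulin-only), 6.19% (glucagon-only) and 3.16% (ghrelin-only) of 15609 genes differed from Neurog3-only cells. In the same order 0.826%, 2.81%, 2.43%, 2.47% and 1.2% were higher and 1.34%, 5.52%, 3.08%, 3.72% and 1.95% lower. Against Neurog3-only cells, limma estimated log2 differences of -0.20 ± 0.53 (SE) for Neurog3 and Fev cells, -0.22 ± 0.53 for Fev-only and 0.84 ± 0.68 for insulin-only cells. It gave -1.26 ± 0.61 for glucagon-only and -2.09 ± 0.81 for ghrelin-only cells. Benjamini-Hochberg adjusted p from limma were 0.95, 0.898, 0.605, 0.253 and 0.170 in this order. Insulin-only cells differed from glucagon-only cells by 2.11 ± 0.75 (adjusted p 0.317), higher in 2 of 2 sets, and from Fev-only cells by 1.06 ± 0.69 (adjusted p 0.666), higher in 2 of 3. The fit held all states and sets together, so its estimates are not means over shared sets alone. Over the sets shared with Neurog3-only cells, the mean differences were -0.00161, -0.0233, 1.38, -0.883 and -1.89 in the same order of states. Swapping states within sets gave exact permutation p between 0.375 and 1.0 over these 7 contrasts. With 2, 3, 4 or 6 shared sets, the smallest p that such a test can give is 0.5, 0.25, 0.125 or 0.0312. Insulin-only against Neurog3-only was -0.03 at E14.5 run 2 and 1.55 and 2.62 at E15.5.

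Vegfa also differed between runs by an amount that did not pass the test. At E13.5 to E15.5, endocrine cells of run 2 were higher than those of run 1 by 0.89 ± 0.30 (log2), with a limma adjusted p of 0.361 by Benjamini-Hochberg. At the same threshold 0.529% of 15691 genes passed, 0.465% higher and 0.0637% lower. Flt1 showed the largest run difference of the genes described here, 1.37 ± 0.45 with the same adjusted p, and 0 of the 7 that were tested passed.

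Cufflinks also estimated transcripts, which were matched by identifier to GENCODE vM21, and 6 of 13 annotated Vegfa transcripts were in the deposited table. In endocrine cells Vegfa-201, with 146 coding codons, carried 65.2% of the Vegfa estimate and was present in 248 cells, and Vegfa-203, with 170 codons, carried 28.8% in 21 cells. In insulin-only cells Vegfa-201 carried 96.9% (36 of 50 cells). In Neurog3-only cells the 2 carried 61.7% and 32.2%, with Vegfa-203 in 8 of 158 cells, and in Fev-only cells 23.5% and 74%, with Vegfa-203 in 5 of 59. The Vegfa-203 shares therefore rest on few cells, and these estimates come from a handful of fragments a cell. No test was made of them.

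Endothelium-like cells occurred in 1 cell set, E12.5, as 13 of its 90 cells, so their values are a description of these cells with no test between sets. That set was low in the GC-rich Rpl13 (mean 93.6 depth-scaled FPKM), and whether other transcripts were read less there was not tested. This limit applies to each value of 0 in these cells. Pecam1 and Cdh5 chose the cells, so the name is checked here with genes outside the gate. Of 43 further endothelial genes in the table, 24 were at 10 FPKM or more in at least 7 of the 13 cells, among them the receptors Tek (median 189 depth-scaled FPKM) and Tie1 (27.1), the transcription factors Fli1 (76.7), Ets1 (75.7) and Erg (45.9), and Cd34 (273). At 0 in all 13 cells were 8 of 9 erythroid genes and, of 10 leukocyte genes, Cd68, C1qa, C1qb, C1qc and Lyz2. So were Epcam and Pdx1 of 8 epithelial genes and Chga and Isl1 of 8 endocrine genes. In some of the 13 cells 2 leukocyte, 1 epithelial and 1 endocrine gene reached 10 FPKM. Summed levels of the 10 leukocyte genes were 0.0 to 128 (median 13.8), beside 0.0 to 18700 (median 7.14) in the other 77 cells. For the 8 epithelial genes they were 0.0 to 19.9 (median 0.599), beside 0.0 to 6840 (median 1410). For the 8 endocrine genes they were 0.0 to 27.6 (median 0.0), beside 0.0 to 16400 (median 0.0). All cells were sorted for eGFP, yet the summed endocrine genes, Neurog3 among them, had a median of 0.0 in the 13 cells. How these cells came to be in the sort was not tested, so 13 of 90 is no estimate of endothelium in the pancreas. The 13 cells held 366039 to 738939 fragments (median 548001) and the other 77 a median of 502135, and the medians of genes at 1 FPKM or more were 5485 and 5469.

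The receptors of VEGF-A were present in these cells and nearly absent from the others. Kdr ranged from 38.8 to 231 depth-scaled FPKM (median 83.3), with all 13 cells at 10 FPKM or more, and its highest value among the other 77 cells was 4.76. Flt1 ranged from 2.69 to 51.7 (median 20.4), with 10 of 13 cells at 10 or more, beside 2 of 77. In level per length Flt1 lay below Kdr in all 13 cells. Of the coreceptors, Nrp1, which binds VEGF-A together with Kdr, was at 33.6 to 152 in the 13 cells but also at 10 or more in 45 of the other 77. Nrp2 reached 10 in 8 of 13 cells and Flt4, the receptor of VEGF-C, in 1. Vegfa itself was at 0 in all 13 cells (0 of 13, exact upper bound 24.7%), whereas 14 of the other 77 cells (18.2%) were at 10 or more. Leukocyte-like cells of the same set were also at 0 in all 21 cells.

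Flt1 estimates were split between the long transcript Flt1-202, with 1333 coding codons, and the short Flt1-203, with 688. A short form of Flt1 is known to be secreted and to bind VEGF-A without signalling. In the 13 cells Flt1-202 carried 55.7% and Flt1-203 42.7% of the estimate. Flt1-203 was present in 10 cells, Flt1-202 in 12 and both in 9, and the short one was the higher in 4. In endocrine cells, where 15 of 475 cells held Flt1 at 10 FPKM or more, 59.6% of the estimate went to Flt1-204, a transcript annotated without a coding sequence, but it was above 0 in 9 cells, so this share rests on few cells. Of 6 annotated Flt1 transcripts, 4 were in the deposited table.

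The adhesion genes were high in all 13 cells. Pecam1 and Cdh5 define the cells, and are given only to describe them: Pecam1 was at 380 to 1270 (median 533) and Cdh5 at 13.2 to 113 (median 47.4). Of the other 77 cells, 6 had Pecam1 at 10 or more, 5 of them with Ptprc at 10 or more, and 0 had Cdh5. Esam was at 246 to 1320 (median 645, beside 3 of 77 other cells at 10 or more) and Emcn at 232 to 1630 (median 734, beside 1 of 77). Madcam1 was at 53.8 to 1780 (median 1220), with 4 of 77 other cells at 10 or more. Its lowest endothelium-like value lay below the highest of the other cells (58.1), so the 2 groups of cells overlapped for Madcam1, as they did for Flt1. They did not overlap for Kdr, Esam, Emcn, Egfl7 and Aplnr. The cell lowest in Madcam1 was the highest of the 13 in Emcn (1630), Egfl7 (2830) and Aplnr (2300).

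**Figure D2:**
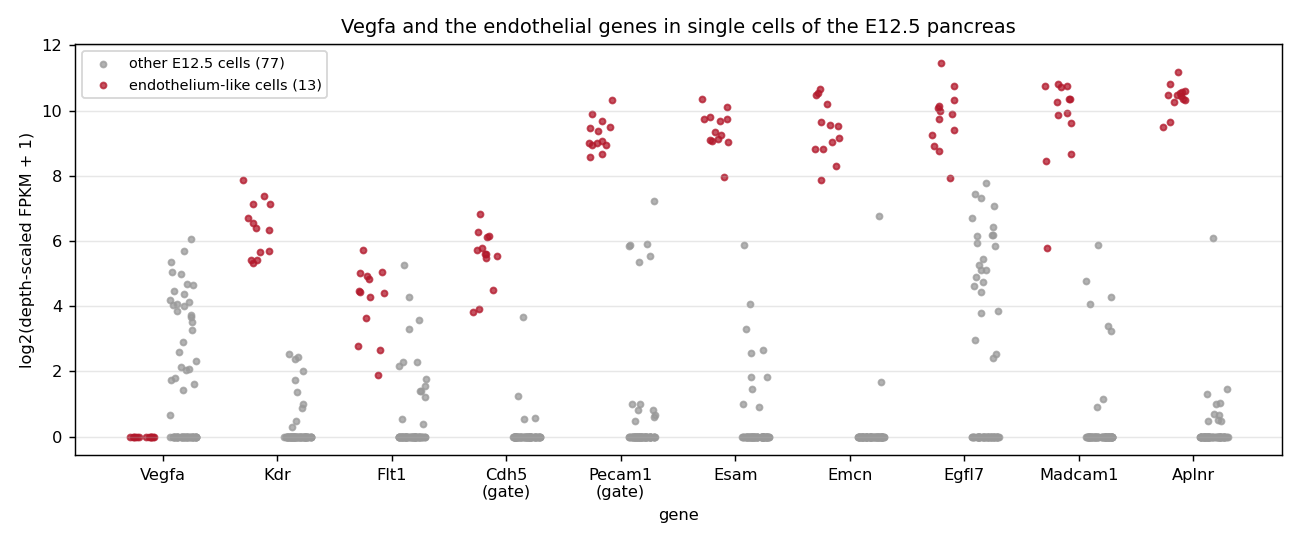
log2(depth-scaled FPKM + 1) of the 10 genes in each of the 13 endothelium-like (red) and the 77 other (grey) cells at E12.5. In FPKM, the 2 groups overlap for Flt1 (up to 37.3 in other cells) and Madcam1 (up to 58.1) among the 9 endothelial genes, and Vegfa is at 0 in all 13 endothelium-like cells.

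Aplnr and Egfl7 were the highest in level per length besides Madcam1. Aplnr was at 713 to 2300 (median 1430) and varied least between the cells, with a coefficient of variation of 0.284 beside 0.384 to 0.657 for the other 8 endothelial genes. Its ligand gene Apln was at 10 or more in 5 of the 13 cells and in 0 of the other 77. Egfl7 was at 245 to 2830 (median 953), but 20 of the other 77 cells (26%) also held it at 10 or more. Counted together, 88 of 91 values (96.7%) of the 7 endothelial genes outside the gate were at 10 or more, and the 3 that were not were Flt1 values.

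Most Egfl7 was assigned to a different start in endothelium-like cells than in other cells, a description with no test, since the 13 cells come from 1 set. The 2 transcripts from the upstream start at 26583864, Egfl7-201 and Egfl7-202, carried 56.3% of the Egfl7 estimate in the 13 cells (576 depth-scaled FPKM) and were present in all 13. In the other 645 kept cells they carried 2.75%, and were present in 8 of the 178 cells with Egfl7. The transcript from the downstream start at 26586630, Egfl7-216, carried 63.3% there, in 119 of 178 cells, and 0.0421% in endothelium-like cells, in 1 of 13. The downstream share was 60.3% in endocrine, 84% in leukocyte-like and 64.9% in unmarked cells, and in the endocrine cells of the 8 sets it ran from 31.2% to 79.1%. The windows before both starts are those printed above, with 1 AGGAAG before the upstream one and 4 GC boxes before the downstream one. A further 29.4% and 12.1% in endothelium-like cells were assigned to 2 further transcripts. Egfl7 exons share 264 bases with Gm20532, 64 with Agpat2 on the other strand and 73 with the microRNA gene Mir126a, out of 3485, and Nextera libraries do not keep strand, so part of the Egfl7 reads could belong to these.

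**Figure D3:**
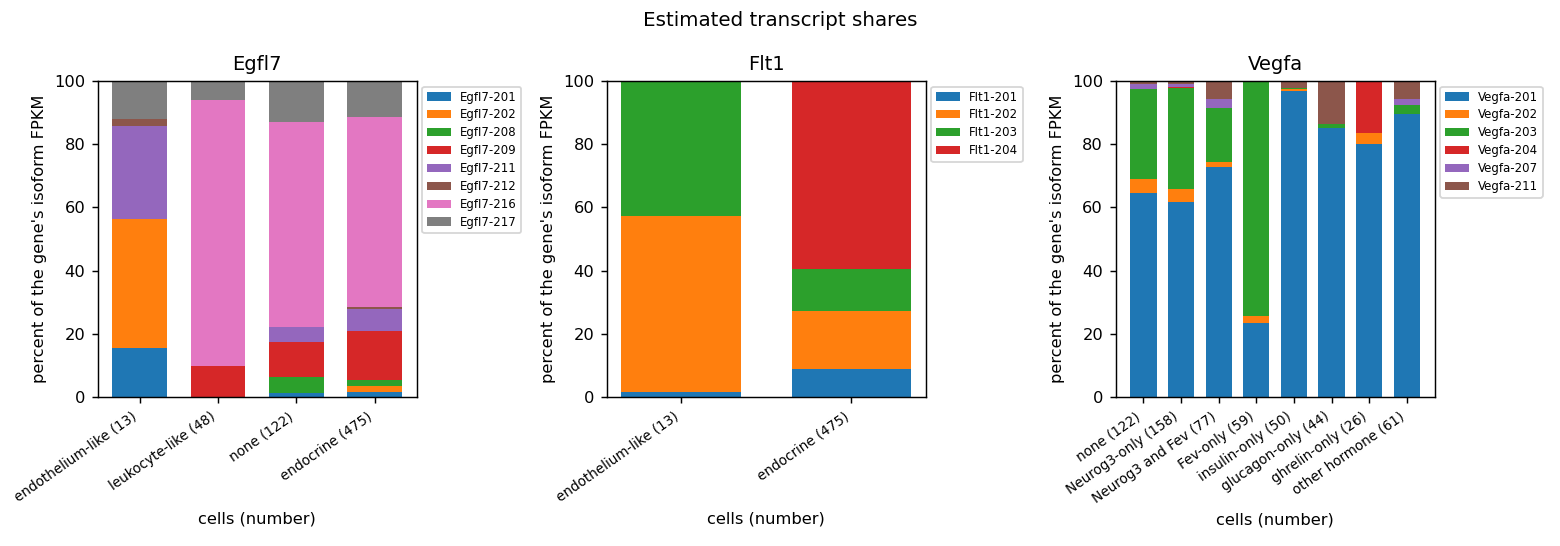
Share of each gene's summed transcript estimates, in percent, by group of cells, for Egfl7, Flt1 and Vegfa, with 1 colour per transcript. The upstream Egfl7 transcripts (Egfl7-201 and Egfl7-202) together hold 56.3% in endothelium-like cells, where Flt1-202 and Flt1-203 hold 55.7% and 42.7%, and Vegfa-201 holds 96.9% in insulin-only cells.

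Genes listed together as venous and lymphatic were found in more of the 13 cells than arterial ones, a description with no test. That list also holds Aplnr, 1 of the 10 genes described here. Of 10 venous and lymphatic genes, 6 were at 10 or more in at least 7 of the 13 cells: Nr2f2, a factor of venous identity, with a median of 67.3, Ephb4 (24.1), Nrp2 (20.9), Stab1 (45.4), Stab2 (44.3) and Aplnr itself. Stab1 was also high in other cells, up to 1360. The lymphatic factor Prox1 was at most 2.05, Lyve1 reached 10 in 2 cells and Pdpn in 0. Of 13 arterial genes, 0 met the same count and 5 reached 10 in some of the cells (median summed arterial level 15.1), and Gja5, Hey1, Hey2 and Bmx were at 0 in all 13 cells. Of 10 genes of sprouting tip cells 0 met it, and Apln and Pdgfb came closest, with 5 cells each. The 13 cells come from a set low in the GC-rich Rpl13, and whether arterial or tip cell genes were also read less there was not tested. The genes most like the mean of the 7 endothelial genes over the 90 cells were Mmrn1 (Pearson r 0.971), Klhl4 (0.966), Gpr116 (0.964), Tek (0.963) and Ecscr (0.953), out of 13884 genes. Such r follow the contrast of 13 cells with the rest, which come from 1 set.

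At E12.5 the gate was clear of all but 1 cell. Over all sets, 1 unmarked cell outside the gate had Cdh5 at 10.5 deposited FPKM, with Pecam1 below 10. The lowest Cdh5 inside the gate was 13.3 deposited FPKM, and the next E12.5 cell had 3.2. That cell was a glucagon-only cell with Gcg at 2680 depth-scaled FPKM and Epcam at 55.3, with 153014 fragments and 7338 genes at 1 FPKM or more. It held Emcn at 107, Aplnr at 67.4, Esam at 57.5, Pecam1 at 57.3, Madcam1 at 26.4, Egfl7 at 25.8, Cdh5 at 11.6, Kdr at 4.38 and Flt1 at 1.96, which are 2.16% to 24.5% of the endothelium-like medians. Vegfa was at 2.46 there. Markers of both an endocrine and an endothelial cell were thus read from this well, and whether it held more than 1 cell was not tested. Without it, the mean of E12.5 endocrine cells went from 6.68 to 0.0 for Emcn, from 4.3 to 0.098 for Aplnr and from 3.64 to 0.0653 for Pecam1.

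Elsewhere the endothelial genes were rare. Outside the 13 cells, Cdh5 reached 10 FPKM in 1 of 645 cells, Kdr in 2, Aplnr in 5, Emcn in 5, Esam in 17, Flt1 in 18 and Pecam1 in 19. Madcam1 reached it in 27 and Egfl7 in 142 (22%). The fragments that 10 FPKM stands for differ by gene, from 3.73 for Egfl7 and 6.89 for Madcam1 to 33.3 for Kdr and 39 for Flt1. These counts therefore do not rank the genes. Averaged over the kept cells of each set, Aplnr was highest at E12.5 (203 depth-scaled FPKM over 90 cells), and without the 13 cells its set means were between 0.0 and 0.975. Over all cells of the 8 sets 0 of the 10 genes had a slope with day that passed (limma, smallest Benjamini-Hochberg adjusted p 0.533, for Pecam1), and 0.0% of 16134 genes did.

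Madcam1 was also read in endocrine cells, most often in Neurog3-only cells. It was at 10 FPKM or more in 16 of 158 Neurog3-only cells (10.1%, 5.90 to 15.9%), in 7 of 8 sets. The set means were 4.16 for E11.5 and 1.33 for E12.5, followed by 4.79 and 4.42 on E13.5, 4.17 and 1.85 on E14.5 and 3.63 and 2.47 on E15.5. It was at 10 or more in 3 of 77 Neurog3 and Fev cells, 2 of 59 Fev-only cells, 1 of 50 insulin-only cells and 0 of 44 glucagon-only and 26 ghrelin-only cells. The mean was 0.0 in each set with at least 5 insulin-only, glucagon-only or ghrelin-only cells. Some of these held few cells, such as 5 glucagon-only beside 28 Neurog3-only cells at E14.5 run 2. Among sets with fewer than 5, means were 5.26 (insulin-only, E13.5 run 1, 4 cells) and 1.51 and 8.8 (glucagon-only, E11.5 and E12.5, 2 and 3 cells). The rest of these were at 0.0, and the value of 8.8 includes the well with endothelial transcripts described above. At 1220 depth-scaled FPKM the endothelium-like median lay far above these levels. Kdr was at 10 FPKM or more in 2 of 475 endocrine cells. However, 10 FPKM corresponds to 33.3 fragments for Kdr and 6.89 for Madcam1, and each gene was detected at any level in 37 of the 475.

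Against Neurog3-only cells Madcam1 fell by 2.26 ± 0.52 (log2, SE) in glucagon-only cells (limma, Benjamini-Hochberg adjusted p 0.00761), by 2.06 ± 0.58 in insulin-only cells (0.0310) and by 2.50 ± 0.68 in ghrelin-only cells (0.0398). It was 1 of 6 genes described here with enough expression to be tested, and the others were Vegfa, Flt1, Pecam1, Egfl7 and Esam. In these 3 contrasts 3.72%, 3.08% and 1.95% of 15609 genes were lower. The difference was -1.46 ± 0.45 in Neurog3 and Fev cells (adjusted p 0.0948, beside 2.17% of genes) and -1.38 in Fev-only cells (0.0565, beside 8.32%). The estimates take 0 in a state as 0 plus the pseudocount of 1 FPKM, so they are no bound on the fold change. Madcam1 was detected in only 26 of 158 Neurog3-only cells, so a mean over few cells can be 0.0 by sampling. How far unequal cell numbers enter these differences was not tested.

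The glucagon-only call passed without any 1 cell set, but the other 2 did not. For insulin-only cells the adjusted p was 0.0613 to 0.146 without E13.5 run 1, E14.5 run 1, E14.5 run 2, E15.5 run 1 or E15.5 run 2, and 0.051 to 0.678 under 8 other alternatives. For ghrelin-only cells it was 0.0597 to 0.177 without E13.5 run 1, E14.5 run 1, E15.5 run 1 or E15.5 run 2. With hormones counted from 10 FPKM none of the 3 passed, with differences of -1.09, -0.97 and -0.57 (insulin-only, glucagon-only, ghrelin-only).

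**Figure D4:**
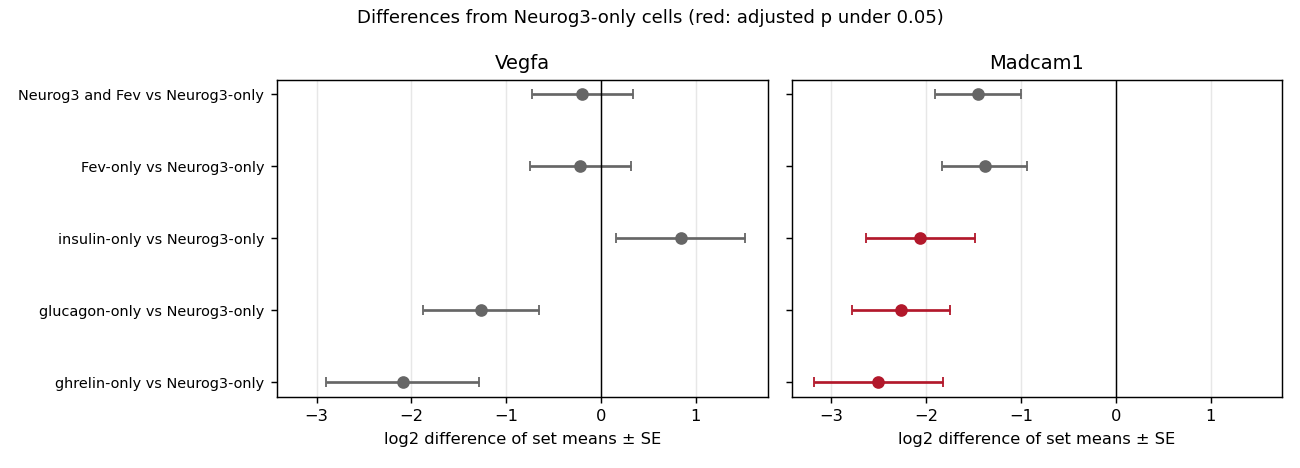
log2 difference of set means (depth-scaled FPKM + 1) from Neurog3-only cells with its SE, for Vegfa (left) and Madcam1 (right) in 5 endocrine states, red where the adjusted p is under 0.05. Madcam1 lies below 0 in all 5 states, from -1.38 to -2.50, and Vegfa on both sides of 0, from -2.09 to 0.84.

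For the other endothelial genes 0 of 4 passed in any of the 7 contrasts. The largest estimates were those of Egfl7, 2.71 ± 1.15 in ghrelin-only cells and 1.92 ± 0.88 in glucagon-only cells (limma adjusted p 0.227 and 0.220 by Benjamini-Hochberg), and both SE are large. Egfl7 was at 10 FPKM or more in 91 of 475 endocrine cells (19.2%), and 60.3% of its estimate in endocrine cells was assigned to the downstream start. Insulin-only against glucagon-only cells gave 0.192% and insulin-only against Fev-only cells 0.673% of genes past the threshold (0.128% higher and 0.0641% lower, and 0.448% and 0.224%), and 0 of the 6 genes described here in either.

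Among the genes of the VEGF system, Pgf, which encodes a ligand of Flt1 but not of Kdr, passed 10 FPKM in more endocrine cells than Vegfa. It was at 10 FPKM or more in 144 of 475 endocrine cells (30.3%, 26.2 to 34.7%), beside 82 for Vegfa, 34 for Vegfb and 1 for Vegfc. Vegfa was detected at any level in 272. Endocrine cells with any Pgf, and the fragments that 10 FPKM stands for in Pgf, were not counted. In Neurog3-only cells its set means were 0.0 for E11.5 and 2.59 for E12.5, followed by 21.5 and 32 on E13.5, 25 and 25.5 on E14.5, and 70.5 and 20.6 on E15.5. Its slope there was 1.21 ± 0.29 per day (limma, Benjamini-Hochberg adjusted p 0.516), opposite in sign to that of Vegfa, and whether the 2 differ was not tested.

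Of the 11 VEGF ligands and receptors listed, 6 were tested between states. In Fev-only cells 0 rose and 1 fell (8.32% of genes passed), with a list median of 0.06 beside -0.14 over all genes. The one that fell was the coreceptor Nrp1, by 2.21 ± 0.47 (limma, Benjamini-Hochberg adjusted p 0.00258), with set means of 0.0 to 0.225 beside 1.84 to 6.13 in Neurog3-only cells, and lower in 6 of 6 sets. With Neurog3 and Fev at 50 FPKM it did not pass (-1.92, adjusted p 0.322). In the other 4 states against Neurog3-only cells 0 of 6 passed, with list medians of -0.02 (Neurog3 and Fev), -0.29 (insulin-only), -0.69 (glucagon-only) and 1.20 (ghrelin-only) beside -0.08, -0.15, -0.22 and -0.29 over all genes.

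Of 27 other angiogenic ligands 11 were tested. In Fev-only cells 0 rose and 1 fell, beside 2.81% and 5.52% of all genes. This was Pdgfa, a growth factor for mesenchyme, which fell by 2.84 ± 0.74 (adjusted p 0.0144), a call that did not pass without E13.5 run 2 (0.0671), without E15.5 run 2 (0.117) or with Neurog3 and Fev at 50 FPKM (-1.20, 0.634). In insulin-only cells 0 rose and 1 fell, beside 2.43% and 3.08% of all genes. The Notch ligand gene Dll4 fell by 3.40 ± 0.83 (0.0118), from set means of 21.5 to 49.6 down to 0.138 to 11.4, and did not pass without E15.5 run 1 (0.168) or without E15.5 run 2 (0.0987). Its difference was -0.33 (0.96) with hormones counted from 10 FPKM and -1.52 (0.397) with at least 3 cells per set. In glucagon-only cells 1 rose and 0 fell, beside 2.47% and 3.72% of all genes. Tgfb2 rose by 1.93 ± 0.57 (0.0393), higher in 4 of 4 sets, but did not pass without E14.5 run 1, E14.5 run 2, E15.5 run 1 or E15.5 run 2 (0.0976 to 0.183), nor under 7 other alternatives (0.0526 to 0.446), the lowest estimate being 0.93 with hormones from 10 FPKM. In Neurog3 and Fev cells and in ghrelin-only cells 0 of 11 passed. The list medians in the 5 states ran from -0.37 to -0.18. These values are from limma with Benjamini-Hochberg adjustment.

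Hypoxia is a known inducer of Vegfa, and 26 of the 30 hypoxia factors and targets listed were tested. In Fev-only cells 1 rose, the glycolytic enzyme gene Aldoa (0.77 ± 0.21, limma adjusted p 0.0188 by Benjamini-Hochberg), and 4 fell, beside 2.81% and 5.52% of all genes. These were Ndrg1, a stress response gene, by 1.24 ± 0.29 (0.00539), Hif3a by 1.41 ± 0.41 (0.0295), Mxi1 by 1.81 ± 0.53 (0.0317) and Ddit4, an inhibitor of mTOR signalling, by 1.43 ± 0.44 (0.0389). Aldoa and Hif3a, Mxi1, Ddit4 and Ndrg1 thus did not move one way. Whether the Aldoa call held under the alternatives given below for the others was not checked. Ndrg1 was also lower in insulin-only cells, by 2.29 ± 0.37 (3.1e-04), with set means of 9.56 to 32 beside 74.1 to 135, and was the 1 of 26 to pass there, beside 5.52% of all genes. With hormones from 10 FPKM its difference was -1.05 (0.142). In glucagon-only cells Ndrg1 fell by 1.24 ± 0.33 (0.0214) and Ddit4 by 1.66 ± 0.50 (0.0469), 2 of 26 beside 6.19% of all genes. In Neurog3 and Fev and in ghrelin-only cells 0 of 26 passed. List medians were -0.23 (Fev-only), -0.12 (insulin-only), -0.02 (glucagon-only), -0.20 (Neurog3 and Fev) and -0.45 (ghrelin-only), beside -0.14, -0.15, -0.22, -0.08 and -0.29 over all genes. Without single cell sets several of these calls were lost: Mxi1 in 4 cases, Ddit4 in Fev-only cells in 4, Hif3a in 3, and Ndrg1 and Ddit4 in glucagon-only cells in 2 each. Other alternatives also ended calls: in Fev-only cells 12 for Mxi1 (adjusted p 0.0522 to 0.759), 6 for Ddit4 (0.0504 to 0.93), 3 for Ndrg1 (0.117 to 0.257) and 2 for Hif3a (0.076 and 0.0983), and in glucagon-only cells 8 for Ddit4 (0.0514 to 0.497) and 7 for Ndrg1 (0.0897 to 0.479).

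Over the 35 units of a cell set and a state, the genes whose level followed Vegfa most closely were Cbr4 (Pearson r 0.595), Polr3g (0.575), Olfr456 (0.572), Aqp4 (0.565) and Ptprj (0.565), out of 15609 genes. Units of a set share its libraries and run. None of the 5 belongs to a list used here.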

How the data were processed

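Single cells from 8 cell sets were compared. Per the submitters' processing notes, reads were aligned with TopHat2 2.0.13 to mm10 and quantified with Cufflinks 2.2.0. The authors deposited FPKM per gene and transcript. Their sum per cell followed the fragment number in the labels (r 0.993 of logs over cells), so they were taken as not scaled by depth. Over 12 genes checked, 30.9% (Egfl7) to 100% of low values, and 90.5% for Vegfa, were whole multiples (within 0.1) of 1 step shared by all cells. Each cell was therefore multiplied here by 555515 (the median) over its fragments. The design had assumed scaled FPKM. Thresholds for states and for counting cells stayed on deposited values. The table's 107 entries without a mouse gene identifier were left out, and 63 cells did not pass the minimum of 100000 fragments and 1500 genes. No doublet caller was run.

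Means over at least 5 cells of a set and state, as log2(mean + 1), were tested over genes with a mean of at least 1 with limma 3.58.1 (R 4.3.3, intensity trend, cell set as block, or day and run), two-sided, with Benjamini-Hochberg adjustment over all genes and a threshold of 0.05. The fit was tested on simulated data with 200 shifted genes. Of shifts of 2 on the log2 scale it recovered 10.5% (ghrelin-only) to 43.5% (Fev-only) in the state contrasts and 0% between runs. Of shifts of 4 it recovered 75% to 97% and 35.5%. A Vegfa difference between states or runs that did not pass could therefore have been missed. Exact permutation tests were run for Vegfa alone, and its slopes in Neurog3 and Fev cells and in Fev-only cells were added after seeing the data. The genes, lists (VEGF system, angiogenic ligands, hypoxia, endothelial, arterial, venous and lymphatic, tip cell and markers of other cell types) and contrasts were chosen with earlier results of these data known. The text names the 10 genes, up to 4 genes per list that passed a contrast (5 for hypoxia in Fev-only cells, where 5 passed) and the 5 most like Vegfa or the endothelial mean. Alternatives changed the pseudocount, filters, scaling, thresholds, averaging and cell sets. Those on deposited FPKM without depth scaling, and on states or thresholds from depth-scaled values, were chosen after seeing the data.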

Additional observations from a re-analysis of the deposited data

Results flagged for a closer look

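In 19 groups of cell sets, 3 had a set far from the others, and chance gives about 1 in 20. All 3 were the E12.5 endocrine cells, as log2(mean + 1) over 8 sets: Emcn 2.94 (others 0.0 to 0.707), Aplnr 2.41 (0.0 to 0.592) and Cdh5 0.881 (0.00461 to 0.329). All 3 come with the glucagon-only cell that also held endothelial transcripts, and without it these values were 0.0, 0.135 and 0.167.

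Of 8 pairs of days or runs, 1 had opposite differences in every set. Vegfa in Neurog3 and Fev cells against Neurog3-only cells was lower in both E13.5 sets (mean -0.82) and higher in both E15.5 sets (mean 0.73), a gap of 1.55 on the log2 scale. The single differences were -0.40 and -1.24 at E13.5, and 0.16 and 1.31 at E15.5, and whether the days differ was not tested.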

How the results depend on the processing

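No paired analysis was possible because the numbers in the labels name wells of single cells and no animal, so they pair no samples across groups; cell set stands in the state fits as a block. Leaving out a set uses the spread pooled over the others. The contrast of ghrelin-only cells gave no value with at least 10 cells per set and state.

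Over Vegfa and the other results that answer a comparison, 243 of 271 alternative values counted as unchanged, and so did 431 of 560 for named genes. For tested results this meant the same direction and side of the threshold, also where neither value passed. For shares it meant a value inside the interval of the main analysis, and for means in endothelium-like cells a value within its SD. Some Vegfa differences changed sign, and the cause was not tested. For Neurog3 and Fev cells they were 0.0654 with a mean of logs, 0.25 with Neurog3 and Fev at 50 FPKM and 0.077 with at least 10 cells, and -0.465 to 0.00785 without single sets. For Fev-only cells they were 0.00932 with a pseudocount of 10, 0.345 without E12.5 run 1 and E13.5 run 1, 0.866 with at least 10 cells, 0.00728 with states from depth-scaled values, and -0.532 to 0.345 without single sets. Insulin-only cells were at -0.121 with at least 3 cells per set, where ghrelin-only cells passed (-1.85, adjusted p 0.0397). The Vegfa slope over all cells was -0.0123 with at least 300000 fragments and -0.133 to 0.161 without single sets. Slopes over all cells without E12.5 run 1 and E13.5 run 1 were 0.0108 for Madcam1 and 0.258 for Esam (-1.15 to 0.252 without single sets), and Ddit4 in Fev-only cells was 0.25 with Neurog3 and Fev at 50 FPKM.

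The exact permutation p of Vegfa along day in Neurog3-only cells was 0.0278 without E12.5 run 1 and E13.5 run 1. It was 0.111 with Neurog3 and Fev at 50 FPKM and 0.0556 with at least 10 cells, and each of these settings had 36 arrangements. It was 0.0333 with a mean of logs and 0.00694 to 0.0139 without single sets (144 or 240 arrangements). In endocrine cells it was 0.0194 on deposited FPKM, 0.00833 with at least 300000 fragments, and 0.0167 to 0.139 without single sets. The share of endothelial values at the threshold was 100% at 1 FPKM and 82.4% at 50 FPKM.

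Madcam1 was lower in hormone cells under every alternative run, but with hormones at 10 FPKM no call passed (adjusted p 0.678, 0.542 and 0.862 for insulin-only, glucagon-only and ghrelin-only). The glucagon-only call was also lost with at least 300000 fragments (0.0929), 3 cells (0.159) or 10 cells (0.193). The insulin-only call was lost in the same 3 (0.118, 0.214 and 0.0844), on deposited FPKM (0.051), with a pseudocount of 10 (0.0534), with states from depth-scaled values (0.051) and without E12.5 run 1 and E13.5 run 1 (0.0643). The ghrelin-only call was lost on deposited FPKM (0.0619), with at least 300000 fragments (0.107) and without those 2 sets (0.0734). In Fev-only cells it passed with a pseudocount of 0.1 (0.0328), a mean of logs (0.00885) or without E14.5 run 2 (0.0229), and in Neurog3 and Fev cells with a mean of logs (0.0215).

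Over all genes, counts of calls ranged from 127 to 477 (Neurog3 and Fev), 149 to 1400 (Fev-only), 116 to 1137 (insulin-only), 85 to 1208 (glucagon-only), 75 to 1274 (ghrelin-only), 7 to 109 (insulin-only against glucagon-only), 22 to 184 (against Fev-only) and 0 to 464 (run). On deposited FPKM the percent of calls that were higher moved from 38.2 to 52.2, 44.1 to 65, 39.9 to 79, 38.1 to 55.4, 66.7 to 51.4 and 66.7 to 82.3 for all of these but Fev-only and run. Rescaled to genes other than predicted, mitochondrial and small RNA genes, it was 55.3 for Neurog3 and Fev and 46.3 for insulin-only against Fev-only. The median of all genes moved by over 0.1 on deposited FPKM, from -0.22 to 0.11 for glucagon-only, -0.15 to 0.04 for insulin-only, -0.29 to -0.15 for ghrelin-only, 0.07 to -0.10 and 0.03 to 0.16 for insulin-only against glucagon-only and Fev-only, and 0.14 to -0.10 for run (0.30 rescaled). Vegfa in most cells is a few fragments, so the depth limits single-cell shares.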

Other observations

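Among the other cells at E12.5, 20 held Egfl7 at 10 FPKM or more and 14 held Vegfa. Of the 40 E12.5 cells with none of the markers used, 10 (25%, exact interval 12.7 to 41.2%) held Vegfa at 10 FPKM or more, beside 4 of 16 endocrine cells (25%, 7.27 to 52.4%). At E11.5 it was 2 of 40 unmarked cells (5.0%).

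Vegfc was at 10 FPKM or more in 2 of the 13 endothelium-like cells, Pgf in 1, and Vegfb in 0. Dll4, known from arterial and tip cells, reached 10 in 2 of the 13, but in 159 of 475 endocrine cells (33.5%, 29.2 to 37.9%). In Fev-only cells its median set mean was 23.2 depth-scaled FPKM and in insulin-only cells 0.424.

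Endothelial genes other than the lists' leaders varied between the 13 cells. Ramp2, a coreceptor of adrenomedullin signalling, was at 0.0 to 488 and reached 10 in 9 cells, Cldn5, a tight junction gene, did so in 2, and Plvap, a gene of fenestrated capillaries, in 9.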
